A study of Mus musculus with 6 samples.

Results

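A set of 10 genes of the BCL2 family, Bcl2, Bcl2l1, Mcl1, Bcl2a1b, Bcl2a1d, Bcl2l11, Bbc3, Pmaip1, Bid and Bax, were followed in cultured CD8 T cells of mice across 6 libraries for RNA-seq. They were chosen by name, as 10 of the 46517 gene identifiers in the deposited count tables, and all 10 passed the filter on low counts. The T cells were naive cells from spleen and lymph nodes of C57BL/6J mice, the only strain used. In both groups they were stimulated for 3 days on plates coated with anti-CD3 at 5 µg/mL, with anti-CD28 at 0.5 µg/mL and IL-2 at 100 units/mL. Basophil culture supernatant was present from day 1 to day 2. In 3 libraries it came from sorted basophils kept for 2 days with IL-2 at 100 units/mL and IL-3 at 3 ng/mL, and in the other 3 from basophils kept with the same IL-2 and PBS in place of IL-3. These groups are called IL-3 supernatant and PBS supernatant, and the comparison asks how the basophils' culture with IL-3 altered the response of the T cells to their supernatant. The supernatant itself was the treatment, so any IL-3 carried over in it and the products of the basophils cannot be told apart. Whether a replicate was a mouse or culture of its own is not given in the labels, so p-values reflect only the scatter among these 6 libraries, which may be technical.

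BCL2 family proteins meet at the outer mitochondrial membrane and set whether a cell releases cytochrome c and dies. Prosurvival members (BCL2, BCL-XL, MCL1, A1) bind and hold back the effectors BAX and BAK and the BH3-only proteins, which are sensors of stress or of cytokine loss. In activated T cells, BCL-XL and A1 are induced through antigen receptor, costimulatory and cytokine signals, and BIM, the product of Bcl2l11, is a main driver of the death that ends a response. The readout here is RNA, and none of these libraries measures protein or cell death.

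Expected counts summed to 17377052 to 18753617 per library with PBS supernatant and 19283416 to 22174902 with IL-3 supernatant, so 3 counts corresponded to 0.135 to 0.173 counts per 1000000 (CPM). CPM are scaled to TMM-normalised library sizes and are used for each gene across libraries, while TPM, the deposited transcript abundances, also correct for length and are used wherever genes are compared. All 8 CD8 T cell markers were detected, with a summed level of 2634 to 2798 CPM with PBS supernatant and 1785 to 1951 CPM with IL-3 supernatant, and 7 of the 8, all but Lck, were called lower. Cd4 was at 0 to 0.831 CPM, while the CD4 T cell list, mostly Zbtb7b, summed to 6.44 to 9.29 CPM with PBS supernatant and 17.9 to 19.8 CPM with IL-3 supernatant. Of 6 basophil and mast cell markers, Mcpt8, Fcer1a, Prss34 and Ms4a2 were at 0 in every library and none exceeded 1 count, and none of 7 myeloid markers exceeded 2.29 counts. The B cell list summed to 2.78 to 3.77 CPM with PBS supernatant and 2.99 to 3.22 CPM with IL-3 supernatant. Of the NK cell list, Ncr1 and Klrb1c had at most 1 count, Klra8 was at 0, and Eomes, which activated CD8 T cells also express, made up nearly all of the summed 38.0 to 44.4 CPM with PBS supernatant and 10.9 to 12.4 CPM with IL-3 supernatant. A single gene, CT010467.1, held 4.51% of all expected counts in PBS supernatant replicate 2 against 0.433 to 2.197% in the other 5 libraries, and no call among the 10 genes changed without that library. Whether these shifts in marker levels play a part in the results below was not tested, and in bulk RNA fewer cells of a type and less RNA per cell cannot be told apart.

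Of the 10 genes, 4 differed between the supernatants. Bcl2l11, which encodes the death inducer BIM, was 3.93-fold lower with IL-3 supernatant, the prosurvival genes Bcl2l1 and Bcl2a1d rose 1.41-fold and 1.88-fold, and Bcl2 fell 1.40-fold. Mcl1, Bcl2a1b, Bbc3, Pmaip1, Bid and Bax did not pass the test. Calls used edgeR's quasi-likelihood test over all 12407 genes tested, at an adjusted p below 0.05. The 2 higher and 2 lower calls stand beside 14.8% of all tested genes called higher and 16.1% called lower, 30.9% in all. The same 4 genes had no overlap between the 3 libraries of each group, 2 higher and 2 lower, which held for 43.6% of tested genes, 21.0% higher and 22.6% lower. A share of 4 in 10 is thus near the background, and the median log2 fold change of the 10 genes was -0.00128 beside -0.00467 over all tested genes. Bcl2l11 lay in the far tail of the whole comparison, with 141 tested genes (1.14%) having a lower log2 fold change.

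**Figure D1:**
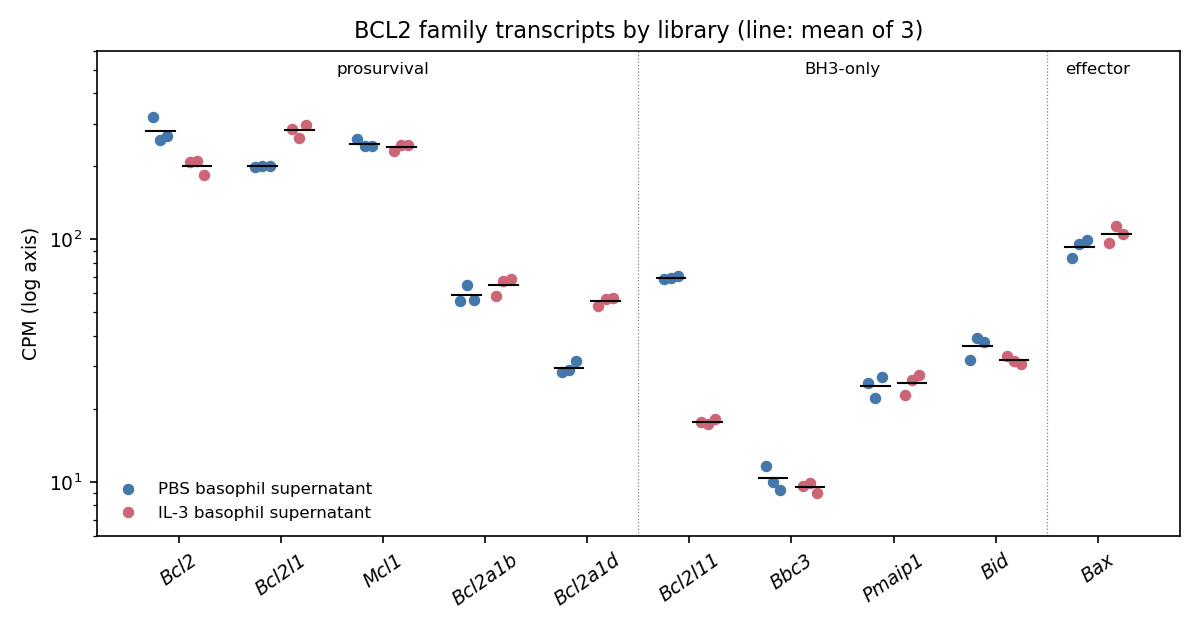
CPM on a log axis of each of the 10 genes in the 3 PBS supernatant and 3 IL-3 supernatant libraries, with points for libraries and lines for the group means. Bcl2l11 and Bcl2 are lower and Bcl2l1 and Bcl2a1d higher with IL-3 supernatant without overlap, while the points of the other 6 genes overlap.

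Among the prosurvival genes, Bcl2l1 (ENSMUSG00000007659, chromosome 2, 152780668 to 152831728, minus strand, GRCm38) encodes BCL-XL, which binds BAX, BAK and most BH3-only proteins. Its level was 200, 201 and 200 CPM with PBS supernatant and 286, 263 and 297 CPM with IL-3 supernatant. Every IL-3 supernatant library was above every PBS supernatant library, and the latter differed by about 1 CPM. The means were 200 ± 0.507 and 282 ± 17.5 CPM (SD, n = 3 per group), a log2 fold change of 0.49 (SE of 0.06, adjusted p = 2.8e-06 by edgeR). On the TPM scale Bcl2l1 went from 166 ± 5.66 to 236 ± 15.0 (SD, n = 3 per group).

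Bcl2 (ENSMUSG00000057329, chromosome 1, 106538178 to 106714274, minus strand), the founding prosurvival gene and the one that resting T cells depend on, moved the other way. It stood at 319, 256 and 266 CPM with PBS supernatant and at 208, 210 and 184 CPM with IL-3 supernatant. PBS supernatant replicate 1 was the highest library, and even the lowest PBS supernatant library was above all 3 IL-3 supernatant libraries. The means of 280 ± 34.0 and 201 ± 14.4 CPM (SD, n = 3 per group) gave a log2 fold change of -0.48 (SE of 0.08, adjusted p = 0.0012 by edgeR). Without PBS supernatant replicate 1 it was -0.38 (adjusted p = 3.4e-05, edgeR). The call was lost in 1 of 17 alternative analyses, limma on log2(TPM + 1) with no filter on low values (-0.54, adjusted p = 0.095), which tests 21155 genes. 

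Mcl1 (ENSMUSG00000038612, chromosome 3, 95658788 to 95663176, plus strand) encodes a short-lived prosurvival protein that is controlled largely through its turnover. Its level was 259, 243 and 242 CPM with PBS supernatant and 232, 245 and 246 CPM with IL-3 supernatant. The groups overlapped, and the log2 fold change was -0.04 (SE of 0.05, adjusted p = 0.61 by edgeR).

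Bcl2a1b (ENSMUSG00000089929, chromosome 9, 89199209 to 89207827, plus strand) and Bcl2a1d (ENSMUSG00000099974, chromosome 9, 88723285 to 88731914, minus strand) are copies of the gene for A1, a prosurvival protein induced by NF-kB in activated lymphocytes. Their coding sequences are 516 bases each in the GENCODE annotation of GRCm38, without the stop codon. Bases 1 to 120 are shown because reads from the coding part must be divided between the copies by very few bases, and those that differ are in capitals.
Bcl2a1b: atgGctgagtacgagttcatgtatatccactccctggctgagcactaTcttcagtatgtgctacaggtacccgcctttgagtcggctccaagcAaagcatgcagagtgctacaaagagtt
Bcl2a1d: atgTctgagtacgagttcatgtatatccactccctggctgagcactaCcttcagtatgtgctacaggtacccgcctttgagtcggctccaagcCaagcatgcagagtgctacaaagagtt
Over all 516 bases they differ at 6 positions, an identity of 98.8%. With Bcl2a1b first and positions counted from 1 at the first base of the start codon, the differences are G4T, T48C, A94C, G312A, C381G and T490A. Of the 50-base windows of these coding sequences, 47.3% for Bcl2a1b and 16.5% for Bcl2a1d occur in no annotated transcript of the other copy or of Bcl2a1a. For 100-base windows these shares are 69.5% and 43.9%. The values of the separate copies are therefore uncertain, since expected counts share out reads that fit several genes. Bases outside the coding part, in transcripts of 817 bases for Bcl2a1b and 863 for Bcl2a1d, were not compared.

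Bcl2a1d stood at 28.3, 28.9 and 31.6 CPM with PBS supernatant and at 53.2, 56.9 and 57.2 CPM with IL-3 supernatant. The groups were far apart compared with their spread, with means of 29.6 ± 1.77 and 55.8 ± 2.21 CPM (SD, n = 3 per group) and a log2 fold change of 0.91 (SE of 0.08, adjusted p = 1.2e-07 by edgeR). Bcl2a1b stood at 55.6, 65.1 and 56.4 CPM with PBS supernatant and at 58.5, 67.3 and 68.4 CPM with IL-3 supernatant. Those groups overlapped, and the log2 fold change was 0.13 (SE of 0.08, adjusted p = 0.23 by edgeR). Bcl2a1d's share of the counts of both copies was 33.5 ± 2.59% with PBS supernatant and 46.3 ± 1.14% with IL-3 supernatant (SD, n = 3 per group). The sum over Bcl2a1a, Bcl2a1b, Bcl2a1c and Bcl2a1d does not depend on how reads were divided among the copies. It was 83.9, 94.0 and 88.0 CPM with PBS supernatant and 112, 125 and 126 CPM with IL-3 supernatant. A1 transcripts as a whole thus rose, by a log2 fold change of 0.45 (SE of 0.07, adjusted p = 4.8e-05 by edgeR), and the 3 libraries of each group did not overlap.

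Of the 4 BH3-only genes among the 10, Bcl2l11 was called and Bbc3, Pmaip1 and Bid were not. Bcl2l11 (ENSMUSG00000027381, chromosome 2, 128126038 to 128162547, plus strand) encodes BIM, which binds all main prosurvival proteins and can activate BAX and BAK directly. Its counts were 1235, 1256 and 1237 with PBS supernatant and 344, 384 and 355 in the larger libraries with IL-3 supernatant. As CPM these were 68.7, 69.6 and 70.5 against 17.7, 17.3 and 18.1. The libraries of a group lay within 2 CPM of each other and the groups were about 50 CPM apart. The means were 69.6 ± 0.905 and 17.7 ± 0.417 CPM (SD, n = 3 per group), 3.93-fold lower with IL-3 supernatant, with a log2 fold change of -1.97 (SE of 0.08, adjusted p = 5.8e-12 by edgeR). Over the 17 alternative analyses it stayed between -1.99 and -1.77 and passed the test in each.

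The other BH3-only genes did not pass the test. Bbc3 (ENSMUSG00000002083, chromosome 7, 16308393 to 16318205, plus strand) encodes PUMA, a p53 target that binds all main prosurvival proteins. It was at 11.7, 10.0 and 9.29 CPM with PBS supernatant and at 9.63, 9.91 and 9.04 CPM with IL-3 supernatant, a log2 fold change of -0.12 (SE of 0.14, adjusted p = 0.57 by edgeR). Pmaip1 (ENSMUSG00000024521, chromosome 18, plus strand) encodes NOXA, whose partners include MCL1. It was at 25.5, 22.1 and 27.0 CPM with PBS supernatant and at 22.8, 26.3 and 27.7 CPM with IL-3 supernatant, a log2 fold change of 0.04 (SE of 0.10, adjusted p = 0.82 by edgeR). Its sign changed in 5 of the 17 alternative analyses, so no direction can be read from it.

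Bid (ENSMUSG00000004446, chromosome 6, 120891930 to 120916853, minus strand) links death receptors to mitochondria once caspase-8 has cut its protein. It was at 31.8, 39.2 and 37.9 CPM with PBS supernatant and at 33.2, 31.5 and 30.8 CPM with IL-3 supernatant. PBS supernatant replicate 1 fell among the IL-3 supernatant libraries. The log2 fold change was -0.19 (SE of 0.09, adjusted p = 0.13 by edgeR), and without PBS supernatant replicate 1 it was -0.28 (edgeR adjusted p = 0.019), which passes. The end of Bid overlaps Bcl2l13 on the other strand, which held 1421 to 1667 counts per library, and whether counting used strand is not given in the sources used here.

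The effector gene Bax (ENSMUSG00000003873, chromosome 7, 45461697 to 45466898, minus strand), whose protein forms pores in the outer mitochondrial membrane, was at 84.2, 96.0 and 99.5 CPM with PBS supernatant and at 97.1, 114 and 106 CPM with IL-3 supernatant. The groups overlapped, and the log2 fold change was 0.18 (SE of 0.07, adjusted p = 0.079 by edgeR). This is close to the threshold, and Bax passed in 3 of the 17 alternative analyses: library sizes without TMM (adjusted p = 0.049), no filter on low counts (adjusted p = 0.029) and without IL-3 supernatant replicate 1 (adjusted p = 0.044), all edgeR.

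The 16 other genes of the family were followed to see whether the same roles moved. Of these 10 were tested, 1 was called higher, none lower and 9 did not pass, and the median log2 fold change of those tested was 0.05. The called share of 10% stood beside 30.9% of all tested genes. The gene called was Bcl2l2 (chromosome 14, 54883377 to 54888234, plus strand), which encodes BCL-W, a prosurvival protein related to BCL-XL. It was at 9.57, 10.5 and 10.1 CPM with PBS supernatant and at 25.2, 26.1 and 25.6 CPM with IL-3 supernatant. The groups were widely separated, and the log2 fold change of 1.35 (SE of 0.10, adjusted p = 2.1e-08 by edgeR), 2.55-fold, stood beside 0.49 for Bcl2l1 and 0.91 for Bcl2a1d. On the TPM scale, however, Bcl2l2 reached a mean of only 14.5 with IL-3 supernatant, beside 236 for Bcl2l1.

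Bak1, the effector that acts beside BAX, was at 117, 119 and 120 CPM with PBS supernatant and at 137, 129 and 128 CPM with IL-3 supernatant. The groups did not overlap, but the log2 fold change of 0.15 (SE 0.06) missed the threshold (edgeR adjusted p = 0.054). It passed with DESeq2's size factors (0.046), without TMM (0.046) and with a filter at CPM 1 (0.049), values that are edgeR adjusted p. Bmf, a BH3-only gene whose protein is held by the cytoskeleton, was at 2.84, 2.33 and 2.17 CPM with PBS supernatant and at 1.80, 0.811 and 1.28 CPM with IL-3 supernatant. Here too the groups did not overlap, and the log2 fold change was -0.92 (SE of 0.37, adjusted p = 0.069 by edgeR). It passed with limma-voom (-0.99, adjusted p = 0.037) and without IL-3 supernatant replicate 1 (-1.23, edgeR adjusted p = 0.044). The BH3-only genes Bad and Bik had log2 fold changes of 0.08 and 0.52, and the effector-like Bok 0.23. The related genes Bcl2l12, Bcl2l13, Bnip3 and Bnip3l had 0.03, -0.08, -0.19 and -0.14, and edgeR adjusted p for these 7 genes was 0.13 or more. Bcl2a1a, Bcl2a1c, Bcl2l10, Bcl2l14, Bcl2l15 and Hrk had too few counts to test, with Bcl2l10 at 0 in every library.

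**Figure D2:**
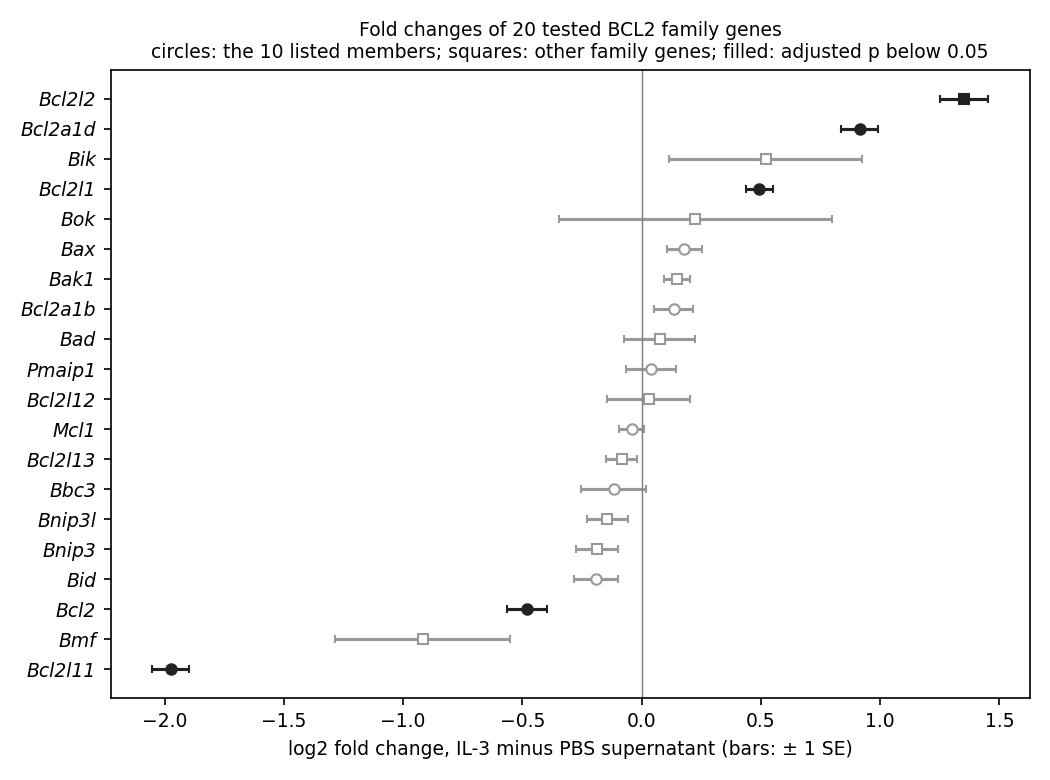
Log2 fold change, IL-3 minus PBS supernatant, with bars of 1 SE for the 10 genes (circles) and the 10 tested others of the family (squares), in order of fold change and filled where called. Bcl2l11 at -1.97 and Bcl2l2 at 1.35 are the farthest from 0.

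Levels were then compared between genes, on the TPM scale. With PBS supernatant the most abundant of the 10 was Bax at 206 ± 15.8 TPM, followed by Bcl2l1 at 166 ± 5.66, Mcl1 at 141 ± 11.3, Bcl2a1b at 139 ± 7.36, Bcl2 at 78.1 ± 11.6, Bcl2a1d at 66.1 ± 4.85, Bcl2l11 at 34.7 ± 0.505, Bid at 32.6 ± 2.65, Pmaip1 at 18.1 ± 2.37 and Bbc3 at 11.8 ± 1.47 (SD, n = 3). Mcl1 and Bcl2a1b, Bcl2 and Bcl2a1d, and Bcl2l11 and Bid lay within their spread of each other. With IL-3 supernatant Bax, at 238 ± 19.0 TPM, and Bcl2l1, at 236 ± 15.0 TPM, differed by less than their spread. Bcl2a1d at 127 ± 5.59 TPM had passed Bcl2 at 56.7 ± 3.61 TPM, though the value of Bcl2a1d depends on how reads were divided between the A1 copies. Bcl2l11, at 9.44 ± 0.754 TPM, had dropped from seventh place to last, below Bbc3 at 10.8 ± 0.285 TPM (SD, n = 3 per group). For PBS supernatant replicate 2 the deposited TPM are per isoform and were summed per gene.

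Summed over the 8 BH3-only genes listed, TPM was 115, 114 and 117 with PBS supernatant and 92.3, 85.1 and 88.0 with IL-3 supernatant. Bcl2l11 made up 30.0 ± 0.0588% of this sum with PBS supernatant and 10.7 ± 0.422% with IL-3 supernatant (SD, n = 3 per group), where Bid held the most, 33.2 ± 0.208%. The prosurvival sum was 619, 574 and 593 TPM with PBS supernatant and 704, 723 and 756 TPM with IL-3 supernatant. Within it the share of Bcl2 went from 13.1 ± 1.44% to 7.81 ± 0.742% and that of Mcl1 from 23.7 ± 1.00% to 19.0 ± 0.288%. The share of Bcl2l1 went from 27.8 ± 0.539% to 32.4 ± 1.81% and that of Bcl2a1d from 11.1 ± 0.834% to 17.4 ± 0.348% (SD, n = 3 per group). So on the TPM scale the prosurvival RNA was both larger in sum and made up differently, with less Bcl2 and more Bcl2l1 and Bcl2a1d. The Bcl2a1d part depends on how reads were divided between the A1 copies. On the CPM scale, which does not correct for length, the levels of the prosurvival genes added up overlapped between the groups. The effector sum was 295, 299 and 323 TPM with PBS supernatant and 333, 362 and 348 TPM with IL-3 supernatant. None of the 3 sums of TPM overlapped between the groups, as held on the CPM scale for 43.6% of tested genes taken singly. The BH3-only sum was the one that was lower with IL-3 supernatant, and Bcl2l11 was the only gene in it that was called. With the share of Bcl2l11 taken away, what is left of the sum overlapped between the groups, so no shift of the other BH3-only genes as a whole can be read from it. The sums are descriptions with no test.

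**Figure D3:**
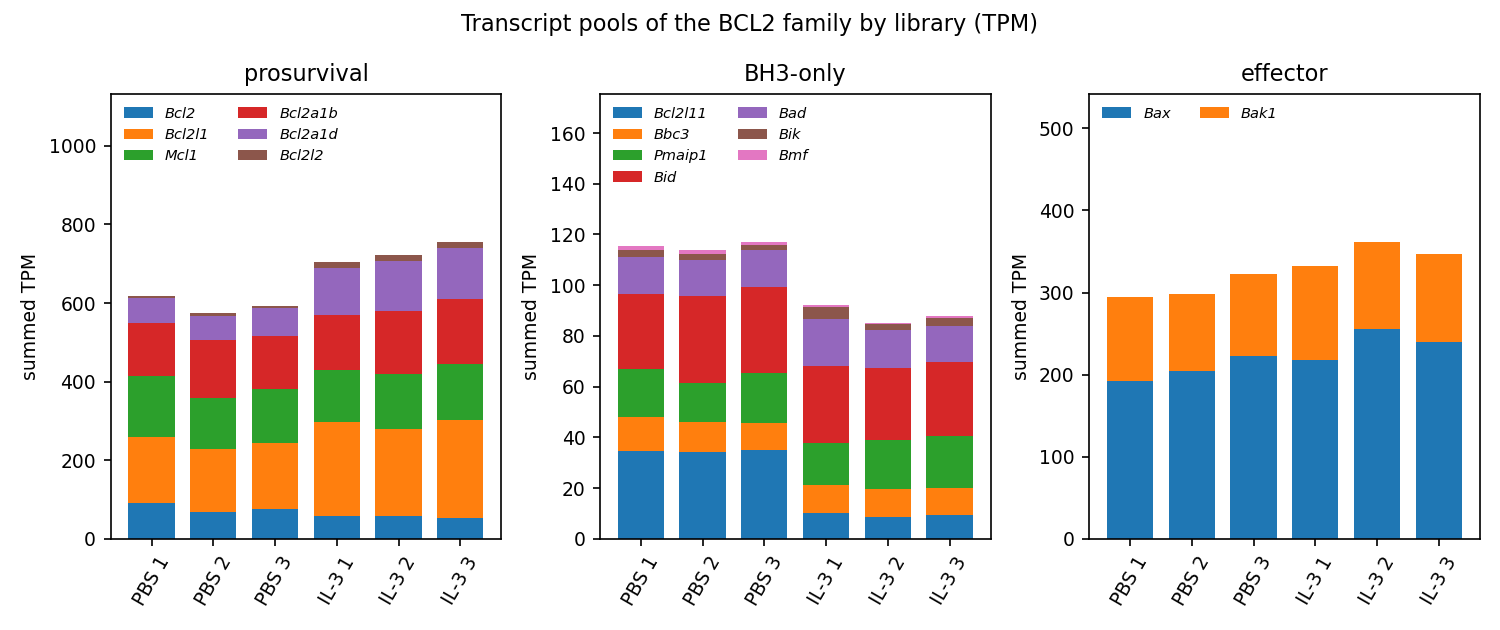
Stacked TPM of prosurvival, BH3-only and effector genes in each of the 6 libraries, coloured by gene. The Bcl2l11 part of the BH3-only stack shrinks from 30.0% to 10.7%, and the prosurvival stack rises from at most 619 TPM to at least 704 TPM.

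Ratios of RNA for proteins known to bind each other were taken within each library, on the TPM scale and with no test. Bcl2 to Bcl2l11 was 2.63, 2.00 and 2.13 with PBS supernatant and 5.72, 6.81 and 5.58 with IL-3 supernatant, so the ratio rose although Bcl2 itself fell. Bcl2l1 to Bcl2l11 was 4.90, 4.65 and 4.79 against 23.4, 25.3 and 26.5. Mcl1 to Bcl2l11 was 4.44, 3.84 and 3.92 against 13.0, 16.1 and 15.1. These ratios share Bcl2l11 as their denominator and so are not independent. With IL-3 supernatant the mean ratio was higher by a factor of 2.68 for Bcl2, 3.61 for Mcl1 and 5.24 for Bcl2l1. Mcl1 to Pmaip1, which does not involve Bcl2l11, was 8.05, 8.51 and 6.94 against 7.90, 7.22 and 6.87 and overlapped. Bcl2 to Bax was lower with IL-3 supernatant, at 0.268, 0.232 and 0.219 against 0.475, 0.335 and 0.336.

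**Figure D4:**
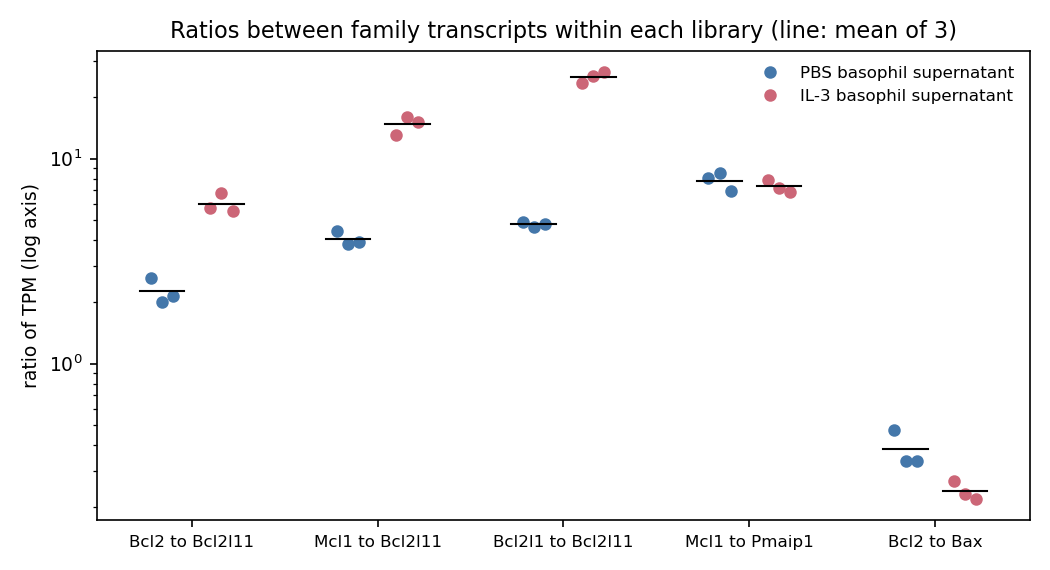
Ratios of TPM within each library, on a log axis, for 5 pairs of genes with points for libraries. The 3 ratios over Bcl2l11 are higher and Bcl2 to Bax lower with IL-3 supernatant, and Mcl1 to Pmaip1 overlaps.

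Isoform values were used for PBS supernatant replicate 2, so they describe that library and no comparison can be made. Bcl2l11 is spliced to BIM forms of different length. The transcript with 196 codons held 17.3 TPM, 50.6% of the gene, that with 140 codons 6.66 TPM (19.5%) and that with 91 codons 3.49 TPM (10.2%), while 3 transcripts annotated as not protein-coding held 16.1%. Bcl2l1 transcripts with the 233 codons of BCL-XL held 87.3%, and Mcl1 was nearly all its 331-codon form at 131 TPM. The 236-codon form of Bcl2 held 93.8%. Each of these genes thus had most of its TPM in a single coding form, with the lowest such share, 50.6%, in Bcl2l11.

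Promoter sequence of the members was searched for motifs of factors known to act on the family, in 300-base RefSeq windows (GRCm38.p6) from 250 bases before to 50 after a start. Such windows were found for 9 of the 10 genes, 14 in all, and both strands were searched. The FOXO motif GTAAACA was in 2 of the 14, 1 each of Bcl2l11 and Bbc3, and in 3.65% of all 32851 windows. The NF-kB consensus was in 2, 1 each of Bcl2l1 and Bbc3, and in 8.46% of all windows. A p53 decamer was in 1, of Bax, and in 8.36% of all, and the STAT motif TTCNNNGAA was in none and in 8.30% of all. For Bcl2l11 and Bcl2l1, which moved in opposite directions, the upstream 250 bases of the 1 window with a match are shown. Both genes also had windows with none of these motifs. The Bcl2l1 window shown lies inside the annotated gene, and the window at the gene's outer end (chr2:152831679-152831978) held no match. Capitals mark the match, FOXO for Bcl2l11 (chr2:128125788-128126037, plus strand) and NF-kB for Bcl2l1 (chr2:152830718-152830967, minus strand).
Bcl2l11: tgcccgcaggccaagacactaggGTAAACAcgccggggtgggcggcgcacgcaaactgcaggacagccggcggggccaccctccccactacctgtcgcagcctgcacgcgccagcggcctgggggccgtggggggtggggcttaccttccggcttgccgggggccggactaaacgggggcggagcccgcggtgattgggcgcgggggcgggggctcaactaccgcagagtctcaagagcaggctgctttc
Bcl2l1: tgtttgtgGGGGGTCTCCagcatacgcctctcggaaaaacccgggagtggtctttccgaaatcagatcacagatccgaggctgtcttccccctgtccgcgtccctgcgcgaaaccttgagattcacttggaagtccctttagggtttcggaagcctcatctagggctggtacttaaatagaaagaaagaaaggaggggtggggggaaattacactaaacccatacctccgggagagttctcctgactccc
The matches begin 227 bases before the start in the Bcl2l11 window and 242 bases before that in the Bcl2l1 window. A match is a description of letters and these data hold no measurement of binding.

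Transcription factors known to act on family genes moved in both directions. Of 15 listed, 8 were called higher, 4 lower and 3 did not pass, beside 14.8% higher and 16.1% lower over all tested genes. The median log2 fold change was 0.30 beside -0.00467 over all tested genes. Stat5a, which carries signals of IL-2 family cytokines to Bcl2 and Bcl2l1, rose from 154 ± 2.02 to 365 ± 10.6 CPM (SD, n = 3 per group), a log2 fold change of 1.25 (edgeR adjusted p = 1.1e-11). Its relatives Stat5b and Stat3 rose by 0.74 and 0.62, and Nfkb1, which encodes an NF-kB subunit, rose by 0.60. Myb, a factor that acts on Bcl2, fell from 41.7 ± 0.859 to 17.4 ± 0.729 CPM (SD, n = 3 per group), a log2 fold change of -1.26 (edgeR adjusted p = 6.0e-09). Foxo3, an inducer of Bcl2l11 and Bbc3 in cells deprived of cytokine, was higher by 0.31 (73.3 ± 0.601 to 90.8 ± 1.45 CPM, SD, n = 3 per group, edgeR adjusted p = 4.1e-04), the opposite direction to Bcl2l11, and Foxo1 was at 0.01 and did not pass. Trp53, Myc and E2f1 fell, at -0.27, -0.22 and -0.42, although the call of Myc was lost without PBS supernatant replicate 2 (edgeR adjusted p = 0.052) or IL-3 supernatant replicate 2 (0.066) and in every analysis of TPM. FOXO and STAT proteins are controlled largely by phosphorylation, which RNA does not show.

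Receptors for cytokines that act on family genes moved in both directions, and 66.7% were called, beside 30.9% of all tested genes. Of 9 listed, 3 rose (Il21r by a log2 fold change of 0.64, Il4ra by 0.56 and Il2ra by 0.34), 3 fell (Il6ra at -2.12, Il6st at -0.67 and Il2rg at -0.24) and 3 did not pass. Il7r, the receptor for the cytokine that keeps Bcl2 up in resting T cells, was among the latter at 0.22 (edgeR adjusted p = 0.12), but was called higher without PBS supernatant replicate 1 (0.36, edgeR adjusted p = 5.8e-04) and with no filter on low counts (edgeR adjusted p = 0.017).

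Downstream of mitochondria, 3 of 11 genes of the apoptosome and caspases rose, 2 fell and 6 did not pass, with a median log2 fold change of 0.04. The called share was 45.5%, beside 30.9% of all tested genes. Casp6, an executioner caspase, rose from 5.57 ± 0.408 to 17.4 ± 3.11 CPM (SD, n = 3 per group), a log2 fold change of 1.65 (edgeR adjusted p = 2.7e-07), and Cycs (cytochrome c) and Htra2 rose by 0.27 and 0.36. Diablo, whose protein relieves caspases of their inhibitors, fell, at -0.43, as did Birc5, which also marks dividing cells, at -0.32. 

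On the death receptor route, which reaches mitochondria through Bid, 4 of 12 genes rose, 3 fell and 5 did not pass, with a median of -0.08. Called genes made up 58.3% of this list, beside 30.9% of all tested genes. Those that rose were Fasl (0.91, edgeR adjusted p = 1.7e-05), Tnfrsf10b (0.75), Cflar (0.45) and Tnfsf10 (0.41). Fasl and Tnfsf10 encode death ligands, Tnfrsf10b a receptor for the latter, and Cflar an inhibitor of caspase-8. Those that fell were Tnfrsf1b (-0.61), Tradd (-0.57) and Casp8 (-0.35), which encodes the enzyme that cuts BID, and Fas did not pass at -0.22. Of 6 genes for turnover and sequestration of family proteins only Btrc was called higher (0.35, edgeR adjusted p = 0.017). That is a share of 16.7%, beside 30.9% of all tested genes. The call of Btrc was lost with DESeq2, in every analysis of TPM and without IL-3 supernatant replicate 1.

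**Figure D5:**
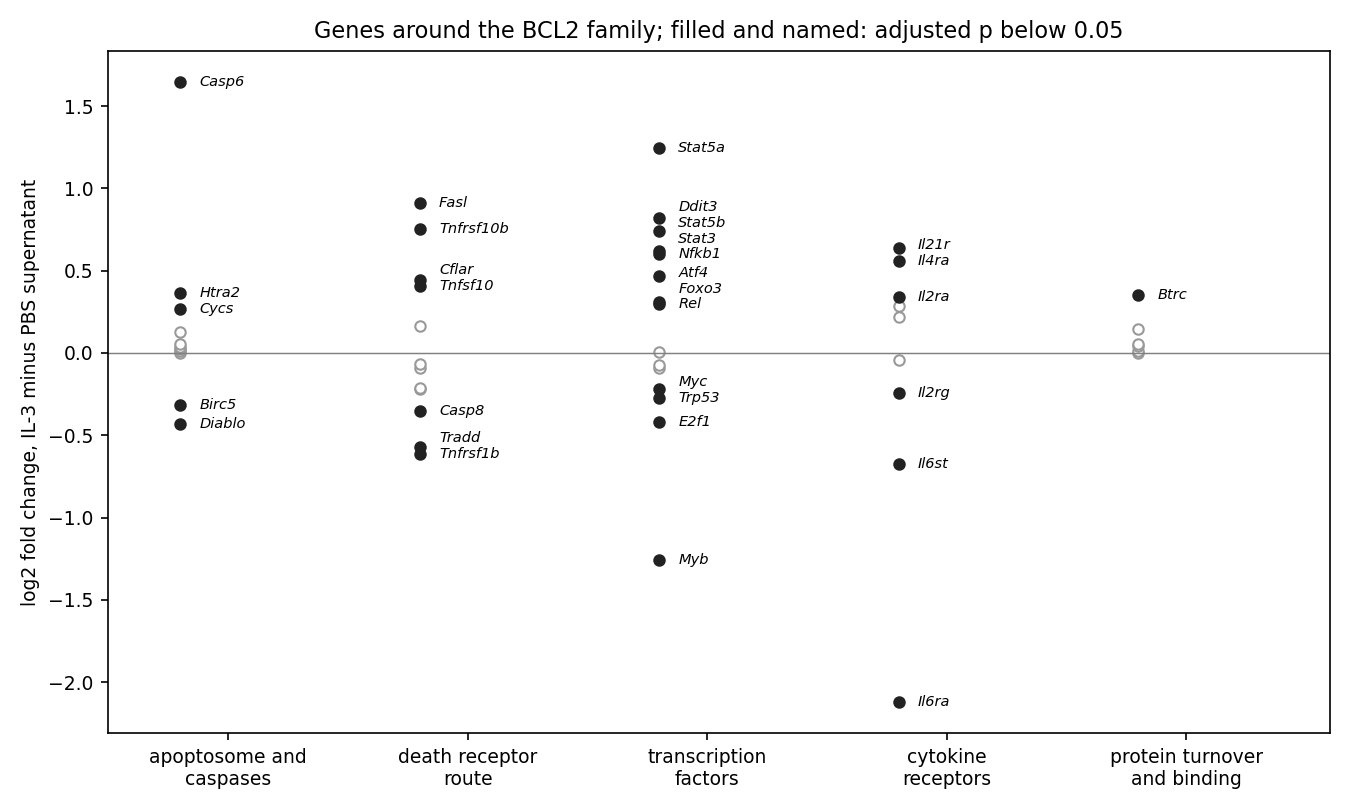
Log2 fold change, IL-3 minus PBS supernatant, of each tested gene in the 5 lists around the BCL2 family, with called genes filled and named. Called genes lie on both sides of 0 in each list but that of turnover and binding, and the transcription factors have the highest median of the 5 lists, 0.30.

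Genes whose pattern over the 6 libraries was most like that of Bcl2l11 were ranked by the root mean square distance of log2 CPM, centred on each gene's mean, among 7420 genes with an average log2 CPM of 4 or more. The nearest were Ipcef1 (0.0397), Atp8b4 (0.0787), Nrn1 (0.0843), Mov10 (0.102) and Dpp4 (0.104), distances in log2 units. Their log2 fold changes were -1.96, -1.85, -1.95, -1.78 and -1.77, and closeness to that of Bcl2l11 follows from the way they were ranked. Ipcef1, the nearest, was at 140, 136 and 144 CPM with PBS supernatant and at 36.3, 36.6 and 35.4 CPM with IL-3 supernatant. None of the 5 is a BCL2 family gene.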

How the data were processed

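The libraries were poly(A) RNA made with an Illumina TruSeq kit, per the labels' protocols. RSEM 1.2.12, Bowtie2 2.2.0, edgeR 3.20.9 and GRCm38 are named in the submitters' processing notes, and neither their roles and order nor the annotation or strand setting is given in the sources used here. Expected counts per gene were deposited by the authors for all 6 libraries, and divide a read that fits several genes among them. TPM, scaled for length and library, were deposited by the authors per gene for 5 libraries and per isoform for PBS supernatant replicate 2. The isoform values were summed per gene, which was chosen after seeing the data.

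Symbols matched 46005 of 46517 gene identifiers. Expected counts were rounded to whole numbers and tested with edgeR 4.0.16 in R 4.3.3: filterByExpr, TMM, a robust quasi-likelihood fit with a term for group only and Benjamini-Hochberg adjustment over 12407 genes, at a threshold of 0.05. These genes held at least 99.9% of each library's counts, and the common biological coefficient of variation was 0.0939. SE were derived from the F statistic. The script was tested on simulated data. No 2 libraries of a group agreed within sampling noise. Alternatives used DESeq2 1.42.0 and limma 3.58.1.

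The 10 genes and the lists were chosen with earlier results of these data known, and 2 genes of the apoptosome and caspase list are not reported here. Named genes are all members, all other family genes, up to 5 called genes with the smallest p from each list, and the 5 nearest patterns to Bcl2l11. Foxo3, Trp53, Myc, E2f1, Tnfsf10, Tradd, Il2rg and the list genes named as not passing were named after their values were seen.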

Additional observations from a re-analysis of the deposited data

How the results depend on the processing

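The counts of calls and the fold changes of the named genes were recomputed under 17 alternatives, 6 of which left out a library. TPM sums, shares, ratios and order, list medians and the ranking of nearest patterns were not recomputed. Bcl2l11, Bcl2l1, Bcl2a1d, Bcl2l2 and Bcl2 kept their direction in all 17, and their call too, except Bcl2 in 1. With limma on log2(TPM + 1), 1156 genes were called higher, with a pseudocount of 0.1 it was 1158, and with no filter on TPM 669 were higher and 820 lower. Of 33 called genes named from the lists or as nearest patterns, all 33 kept their direction and 22 their call in all 17, and the other 11 lost it at least in that last analysis. There 1 of the 10 genes was called lower, as Bcl2 did not pass (-0.54), the caspase list had 1 higher and 1 lower, the death receptor list 2 higher and 1 lower, and the transcription factors 2 lower. TPM was used for 5 libraries in these, and fewer calls there were not traced to a cause.

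Other BCL2 family genes called higher numbered 2 with DESeq2 size factors, library size only and a filter at CPM 1, through Bak1. The count was also 2 with no filter, through Bcl2l15, which had 24.8 of its 31.5 IL-3 supernatant counts in replicate 3. Those called lower numbered 1 with limma-voom, through Bmf. Leaving out a library gave 0 to 1 called lower, and 0 to 1 of the turnover list called higher. The latter count was also 0 with DESeq2 and in the analyses of TPM. Taken alone instead of summed with its copies, Bcl2a1b had 0.13. The cause of these changes was not tested.

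Signs changed for genes near 0 that passed in none of the alternatives in which they were tested. Pmaip1 was -0.046 with limma on log2(TPM + 1), with or without a filter, and -0.048 with a pseudocount of 0.1, and ranged from -0.028 to 0.116 when a library was left out. In the same analyses of TPM Bcl2l13 was at 0.0149. Bcl2l12 was -0.0065 with limma-voom and ranged from -0.087 to 0.232 without a library, Foxo1 from -0.036 to 0.057, Bok from -0.016 to 0.587 and Bad from -0.036 to 0.161.

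The replicate numbers are shared by the groups, and whether they pair the libraries is not given in the labels. Deviations from the group means correlated across genes at -0.15, 0.05 and 0.25 for numbers 1, 2 and 3. PBS supernatant replicate 2 correlated best with IL-3 supernatant replicate 1, at 0.26. With 3 libraries per group these values cannot decide whether the libraries were paired. With the replicate block 1634 genes were called higher and 1776 lower, and the calls among the 10 genes stayed 2 and 2. Leaving out each library gave 1456 to 1916 higher and 1601 to 2102 lower. Genes under about 1 CPM, such as Hrk, are limited by depth.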
